A study of Mus musculus with 6 samples.

Results

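The 8 genes that mark the fat-laden mouse liver were read in 6 livers. They are Cd36, Pparg, Cidea, Vldlr, Lpl, Hsd17b13, Anxa5 and S100a11. A member had to have a probe set, a group of short probes that reports 1 transcript, whose platform annotation names that gene and no other. Of the 8 genes, 7 had such a probe set, 1 each, among 14860 genes measured this way, and S100a11, which encodes a calcium-binding partner of annexins, had none and has no value here. The livers came from 3 DeltaHepKlf6 mice, in which Klf6 was knocked down in hepatocytes only (other label fields say knockout), and from 3 littermate controls labelled wild type. Every mouse ate a high-fat diet, and livers were taken after 8 weeks of it. The labels describe the DeltaHepKlf6 group as having less fat in the liver and improved glucose tolerance, and the Control group as having marked steatosis and glucose intolerance. These are descriptions of the groups, with no fat measurement for a single mouse used here. What drives the knockdown, and the age and sex of the mice, are not given in the sources used here.

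Fat reaches hepatocytes as fatty acids, carried across the membrane with the help of proteins such as CD36, and as lipoprotein particles, which lipases open and receptors such as the VLDL receptor take in. In mouse liver that stores fat, the nuclear receptor PPAR gamma, scarce in lean hepatocytes, is known to rise and to switch on genes otherwise typical of adipocytes, Cd36 and Cidea among them. Proteins on the surface of the lipid droplet, such as CIDEA and HSD17B13, accompany that storage, and annexin A5 and S100A11 have been described at higher levels in fatty liver without a known part in uptake. The members were therefore read as a transcript measure of steatosis, set against the genotype.

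All values are log2 values as the authors deposited them, 1 array for each mouse, and differences are DeltaHepKlf6 minus Control. None of the 7 measured members passed the test: limma's moderated test called 0 of 7, and 0 of 7 had an unadjusted p under 0.05. Across the whole array the same test called 0 of 23332 probe sets (0% higher and 0% lower), with 750 or 3.21% at an unadjusted p under 0.05. The members' median log2 difference was -0.11, and 6 of 7 differences were below 0, where 62.1% of all 14860 genes were and the median over them was -0.05. The members' median differed between settings. It was -0.09 with equal array medians, -0.07 after quantile normalization and -0.02 with equal medians and interquartile ranges (4 of 7 lower). With array weights it was -0.03, and with the interquartile range of each array as a covariate 0.03 (3 of 7 lower). Without the dimmest 25% or 50% of probe sets it was -0.135 or -0.16, over the members left. The median over all genes is given for the values as deposited only. Among the 7429 genes brighter than the median gene, 68.6% were lower, with a median of -0.09. In 0 of 7 members did the 3 DeltaHepKlf6 values lie clear of the 3 Control values, which happened in 6.72% of all probe sets. The adjusted p of every member was 0.998 (limma, Benjamini-Hochberg over all probe sets).

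**Figure D1:**
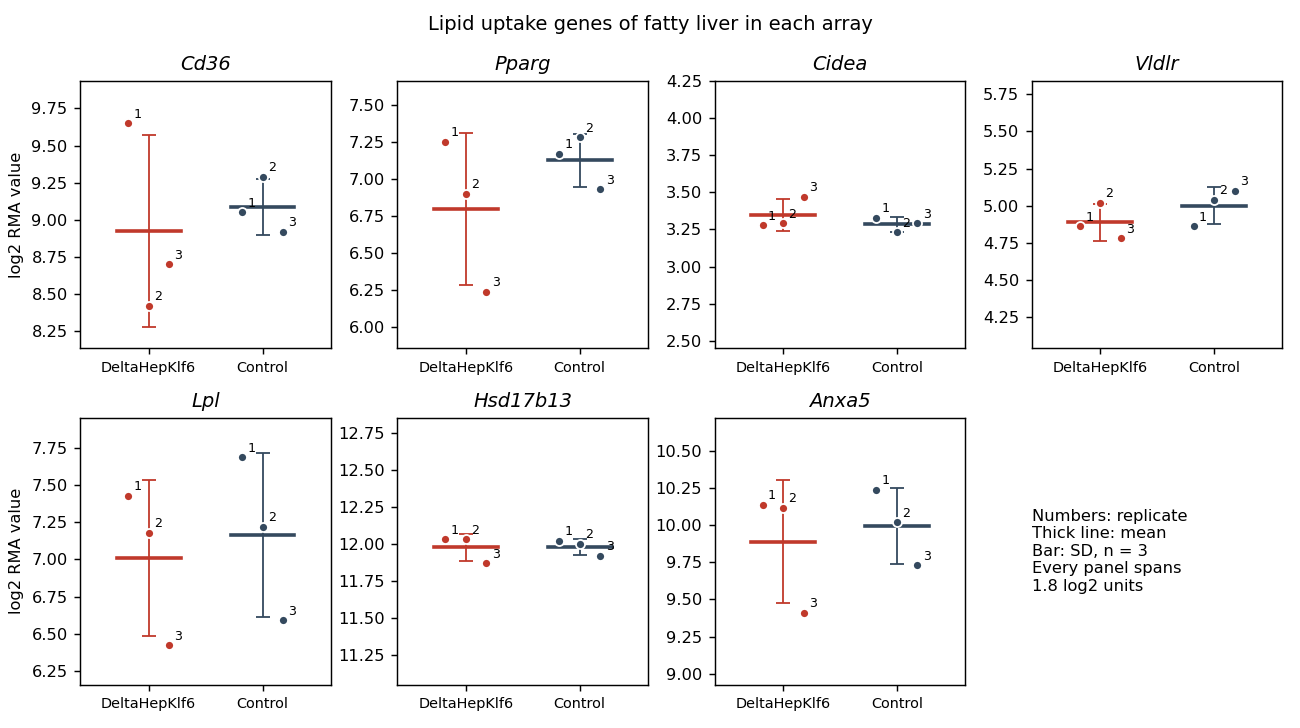
Log2 values of the 7 measured members in each array, DeltaHepKlf6 left and Control right, with the replicate number beside each point, the mean as a thick line and the SD as a bar (n = 3 per group). The groups overlap in every panel, and Pparg, Lpl and Anxa5 are lowest in DeltaHepKlf6 3.

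Klf6 itself, the gene targeted in hepatocytes, had 5.93, 5.43 and 5.45 in DeltaHepKlf6 1, 2 and 3, and 6.80, 6.09 and 5.88 in Control 1, 2 and 3. DeltaHepKlf6 1 lay above Control 3, and the difference of -0.65 ± 0.28 (SE) did not pass (limma adjusted p = 0.998). Without Control 1 it was -0.38. Of 8 measured hepatocyte markers 4 were lower, 4 higher and 0 called, with differences of -0.28 to 0.05 and a median of 0.02. Of the brightest, Alb averaged 12.97 ± 0.12 in DeltaHepKlf6 and 12.92 ± 0.08 in Control, and Ttr 13.07 ± 0.06 in DeltaHepKlf6 and 13.02 ± 0.07 in Control (SD, n = 3 each). Both are among the higher markers. The lower ones were Hnf4a, Asgr1, Fah and Tat, with differences of -0.25, -0.27, -0.28 and -0.007. Array medians ran from 5.49 to 5.55. The interquartile range over probe sets, which shows how far bright and dim sets lie apart on an array, was 3.05, 3.19 and 2.76 in DeltaHepKlf6 1, 2 and 3, and 3.29, 3.05 and 2.96 in Control 1, 2 and 3. DeltaHepKlf6 3 thus had the narrowest values. Control 3 stood apart in another way: the mean over 8 exocrine pancreas genes was 11.07 there, against 4.83 to 5.17 in the other 5 arrays. The RNA is that of whole liver, in which fewer cells of a type and less RNA per cell cannot be told apart.

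Cd36, the fatty acid translocase of the plasma membrane, was the most divided member within the DeltaHepKlf6 group. It read 9.65, 8.42 and 8.70 in DeltaHepKlf6 1, 2 and 3, and 9.05, 9.29 and 8.92 in Control 1, 2 and 3. The highest and the lowest of the 6 values were both DeltaHepKlf6 mice, with every control in between. The DeltaHepKlf6 values spanned 1.23 log2 units and the Control values 0.37, a contrast in spread that was not tested. Means were 8.92 ± 0.64 in DeltaHepKlf6 and 9.09 ± 0.19 in Control (SD, n = 3 each), a difference of -0.16 ± 0.33 (SE) with a 95% confidence interval of -0.97 to 0.64 (limma adjusted p = 0.998). On the fold scale the interval runs from 0.51 to 1.56 times the Control level. Which mice were counted decided the direction: without DeltaHepKlf6 1 the difference was -0.53, with an unadjusted p of 0.0393 in limma, and without DeltaHepKlf6 2 it was 0.09.

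The 250 bases before a RefSeq start of Cd36, inside the gene on the minus strand of chr5:17835897-17836146 (GRCm38.p6), are shown because Kruppel-like factors such as KLF6 bind GC boxes and CACCC boxes. Capitals mark the GC box GGGCGG and the box CACCC, on either strand.
Cd36: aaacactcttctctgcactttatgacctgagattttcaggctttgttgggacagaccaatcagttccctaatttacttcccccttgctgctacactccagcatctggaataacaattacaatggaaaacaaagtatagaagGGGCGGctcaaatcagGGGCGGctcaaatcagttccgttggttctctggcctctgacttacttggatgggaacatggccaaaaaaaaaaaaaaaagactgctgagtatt
The box GGGCGG occurs 2 times, starting 109 and 93 bases before the start, each followed by the same letters, and CACCC not at all. Over all 32851 RefSeq promoter windows of 300 bases (250 before and 50 after the start, both strands), 35.7% hold GGGCGG and 57.5% hold CACCC. A match describes the letters and is no evidence of binding.

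Pparg, which encodes PPAR gamma, had the largest difference of the 7. It read 7.25, 6.90 and 6.24 in DeltaHepKlf6 1, 2 and 3, and 7.17, 7.28 and 6.93 in Control 1, 2 and 3. DeltaHepKlf6 1 lay among the controls, DeltaHepKlf6 2 just under the lowest of them, and DeltaHepKlf6 3 far below all others. Means were 6.80 ± 0.51 in DeltaHepKlf6 and 7.13 ± 0.18 in Control (SD, n = 3 each). The difference of -0.33 ± 0.28 (SE) had a 95% confidence interval of -0.9996 to 0.34 (limma adjusted p = 0.998), or 0.50 to 1.27 times the Control level. Without DeltaHepKlf6 3 it was -0.05, without DeltaHepKlf6 1 it was -0.56, and it stayed below 0 with each of the 6 arrays left out in turn.

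RefSeq gives Pparg 3 windows on the plus strand of chromosome 6, and the first and last are shown because the gene starts at widely spaced sites, the last of them in the region of the start used by the adipocyte isoform. They cover chr6:115360894-115361143 and chr6:115421816-115422065 (GRCm38.p6), with capitals as above.
Pparg, first start: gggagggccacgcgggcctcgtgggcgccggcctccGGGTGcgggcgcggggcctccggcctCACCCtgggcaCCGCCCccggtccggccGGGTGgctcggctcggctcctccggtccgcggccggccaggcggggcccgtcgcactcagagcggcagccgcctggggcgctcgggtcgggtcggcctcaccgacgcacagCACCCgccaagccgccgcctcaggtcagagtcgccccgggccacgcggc
Pparg, last start: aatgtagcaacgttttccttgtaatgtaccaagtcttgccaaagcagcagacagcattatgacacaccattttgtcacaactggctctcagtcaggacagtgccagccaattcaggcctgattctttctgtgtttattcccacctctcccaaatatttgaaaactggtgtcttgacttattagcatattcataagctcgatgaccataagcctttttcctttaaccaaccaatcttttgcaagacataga
The first holds 1 GGGCGG box and 4 CACCC boxes, counting both strands, and the last holds 0 of either. The probe set reports the gene as a whole, so its values do not tell the starts apart. Of the 6 genes of the set with a window used here, 4 had GGGCGG in at least 1 window and 3 had CACCC. Counted by window, 5 of their 9 windows held GGGCGG and 4 held CACCC, against 35.7% and 57.5% of all windows. The motif AGGTCA of nuclear receptors was found in 4 of these 6 genes. By window that is 5 of 9, against 16.3% of all windows, and some genes have several windows. The direct repeat of that motif with 1 free base between the copies, the DR1 element that PPARs bind, was searched on both strands with up to 3 mismatches in its 12 fixed bases, and its matches can overlap those of AGGTCA. It was found in 1 of the 9 windows, that of Cd36, and in 24.6% of all windows.

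Lpl encodes lipoprotein lipase, the enzyme that frees fatty acids from circulating triglyceride. It was the member with the widest span over the 6 arrays, 1.27 log2 units, wider than in 93.3% of all genes. It read 7.43, 7.18 and 6.42 in DeltaHepKlf6 1, 2 and 3, and 7.69, 7.22 and 6.59 in Control 1, 2 and 3. Each group ran through nearly the whole span, with the lowest value of each in replicate 3. Means were 7.01 ± 0.53 in DeltaHepKlf6 and 7.17 ± 0.55 in Control (SD, n = 3 each), and the difference of -0.16 ± 0.37 (SE) had a 95% confidence interval of -1.06 to 0.74 (limma adjusted p = 0.998). Without DeltaHepKlf6 3 or Control 1 its sign turned, to 0.14 and 0.105, and without Control 3 it was -0.445.

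Vldlr, the receptor that takes up triglyceride-rich particles, was a dim probe set. It read 4.86, 5.02 and 4.78 in DeltaHepKlf6 1, 2 and 3, and 4.86, 5.04 and 5.10 in Control 1, 2 and 3, so the groups shared most of their range. The difference was -0.11 ± 0.14 (SE), with a 95% confidence interval of -0.46 to 0.23 (limma adjusted p = 0.998). As a yardstick for probe sets of genes that liver does not use, 801 probe sets of olfactory and vomeronasal receptors had a median of 3.11 over the 6 arrays and a 95th percentile of 5.32. The mean of Vldlr, 4.94, was exceeded by 74 or 9.24% of them. How much of its value is background was not tested, and background compresses the differences of dim sets.

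Cidea, which promotes the fusion of lipid droplets, read 3.28, 3.29 and 3.47 in DeltaHepKlf6 1, 2 and 3, and 3.33, 3.23 and 3.29 in Control 1, 2 and 3. Its mean of 3.32 was exceeded by 347 of the 801 receptor probe sets, or 43.3%, so a Cidea signal above background was not detectable on these arrays in either group. The probe set differed by 0.06 ± 0.13 (SE), with an interval of -0.25 to 0.37, and no level, fold or direction of the transcript is drawn from it. Hsd17b13, a droplet enzyme made chiefly by hepatocytes, was a bright probe set with 12.03, 12.03 and 11.87 in DeltaHepKlf6 and 12.02, 12 and 11.92 in Control. The whole span of 0.16 was narrower than in nearly all genes, as 1.49% had a smaller one. Other very bright probe sets were narrow too, with 0.16 for Fabp1 and Ttr and 0.07 for Apoc3, though Hsd17b10 spanned 0.36. How far such a span describes the transcript was not tested. The Hsd17b13 difference of -0.003 ± 0.126 (SE) had a 95% confidence interval of -0.31 to 0.30, or 0.81 to 1.23 times the Control level (limma adjusted p = 0.998). With equal medians and interquartile ranges of the arrays it was 0.238.

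Anxa5 encodes annexin A5, which binds phosphatidylserine in the presence of calcium. It read 10.14, 10.12 and 9.41 in DeltaHepKlf6 1, 2 and 3, and 10.24, 10.02 and 9.73 in Control 1, 2 and 3. DeltaHepKlf6 1 and 2 lay within the Control range and DeltaHepKlf6 3 below it. The difference of -0.11 ± 0.25 (SE) had a 95% confidence interval of -0.72 to 0.51 (limma adjusted p = 0.998). Without DeltaHepKlf6 3 it was 0.13, and without Control 1 0.015.

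**Figure D2:**
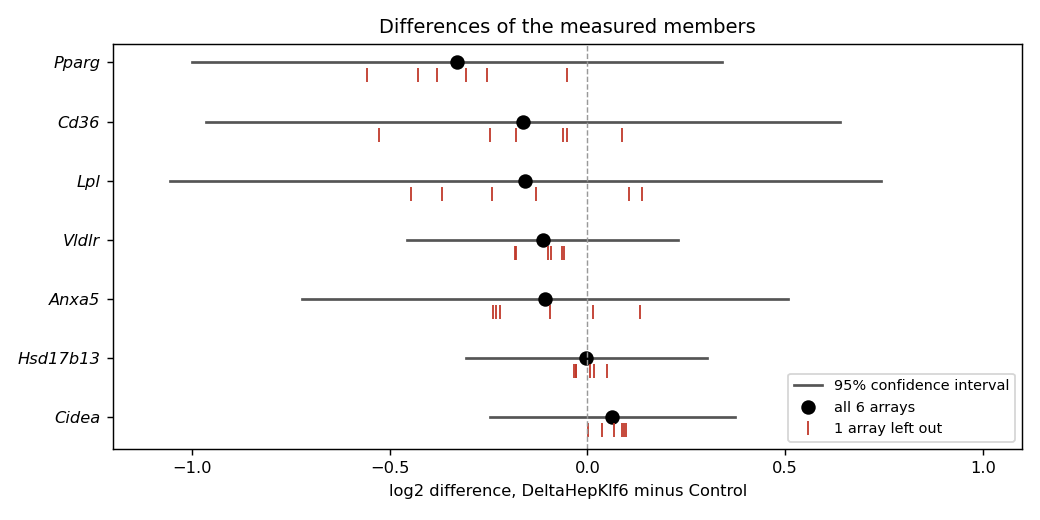
Log2 differences, DeltaHepKlf6 minus Control, of the 7 measured members with all 6 arrays (points), their 95% confidence intervals (lines) and the values with 1 array left out (red ticks). Every interval includes 0, and the ticks of Cd36, Lpl, Hsd17b13 and Anxa5 lie on both sides of 0.

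The span over the arrays differed between the members. Cd36, Pparg, Lpl and Anxa5 spanned 0.83 to 1.27 log2 units over the 6 arrays, more than in 76.0% to 93.3% of all genes. Hsd17b13, the brightest member, spanned 0.16, as did the very bright probe sets of Fabp1 and Ttr. The probe sets of Cidea and Vldlr spanned 0.24 and 0.32. Cidea lies at background, so its narrow span does not describe the transcript. Vldlr is dim, and how far its span describes the transcript was not tested. In Cd36, Pparg, Lpl and Anxa5 most of the span was between mice of 1 genotype: the DeltaHepKlf6 arrays alone spanned 0.73 to 1.23.

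Read by array, the members did not sort the mice by genotype. Their mean deviation from each member's own mean over the 6 arrays was 0.20, -0.04 and -0.335 in DeltaHepKlf6 1, 2 and 3, and 0.16, 0.12 and -0.11 in Control 1, 2 and 3. The highest and the lowest score both belonged to DeltaHepKlf6 mice, though every array of that group carries the label of less steatosis. The place of DeltaHepKlf6 1 above Control 1 rests on Cd36, with 9.65 against 9.05. DeltaHepKlf6 1 was alone the highest array in 1 member, Cd36, and Control 1 in 2. DeltaHepKlf6 3 was the lowest array in 5 of the 7 members (Pparg, Vldlr, Lpl, Hsd17b13 and Anxa5) and the highest in the probe set of Cidea, which lies at background. That array was also the lowest of the 6 in 38.7% of all genes and in 55.9% of those brighter than the median gene, which is the background for that count. With the interquartile range of each array as a covariate, 3 of 7 members were lower, and without DeltaHepKlf6 3 or without Control 1 also 3 of 7. Without both arrays that stood apart, DeltaHepKlf6 3 and Control 3, 4 of 7 were lower and the median difference was -0.01.

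Several members are made by cells other than hepatocytes too, Lpl and Cd36 by macrophages and Cd36 by endothelial cells. The macrophage and Kupffer cell markers were lower in 16 of 16 measured genes, with 0 called, and their mean level was 7.17, 7.30 and 6.67 in DeltaHepKlf6 1, 2 and 3 and 7.68, 7.42 and 7.29 in Control 1, 2 and 3. The marker mean and the member score were both lowest in DeltaHepKlf6 3. DeltaHepKlf6 1 had the highest member score, which rests on Cd36, as given above. Its mean of the macrophage markers was under that of every control, but single markers differed. Of the brightest, Cd68 had 8.29 there, against 8.33 to 8.82 in Control, and Vsig4 had 10.82, against 10.43 to 10.81 in Control. Endothelial markers were lower in 9 of 12 genes, with 0 called and means of 7.33 to 7.73 in DeltaHepKlf6 and 7.56 to 7.74 in Control. Adipocyte markers had means of 5.05 to 5.41 in DeltaHepKlf6 and 5.11 to 5.35 in Control, and their defining gene Adipoq had 2.81 to 2.96 and 3.13 to 3.45, close to the receptor median of 3.11. The part of these cells in the member values was not tested.

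**Figure D3:**
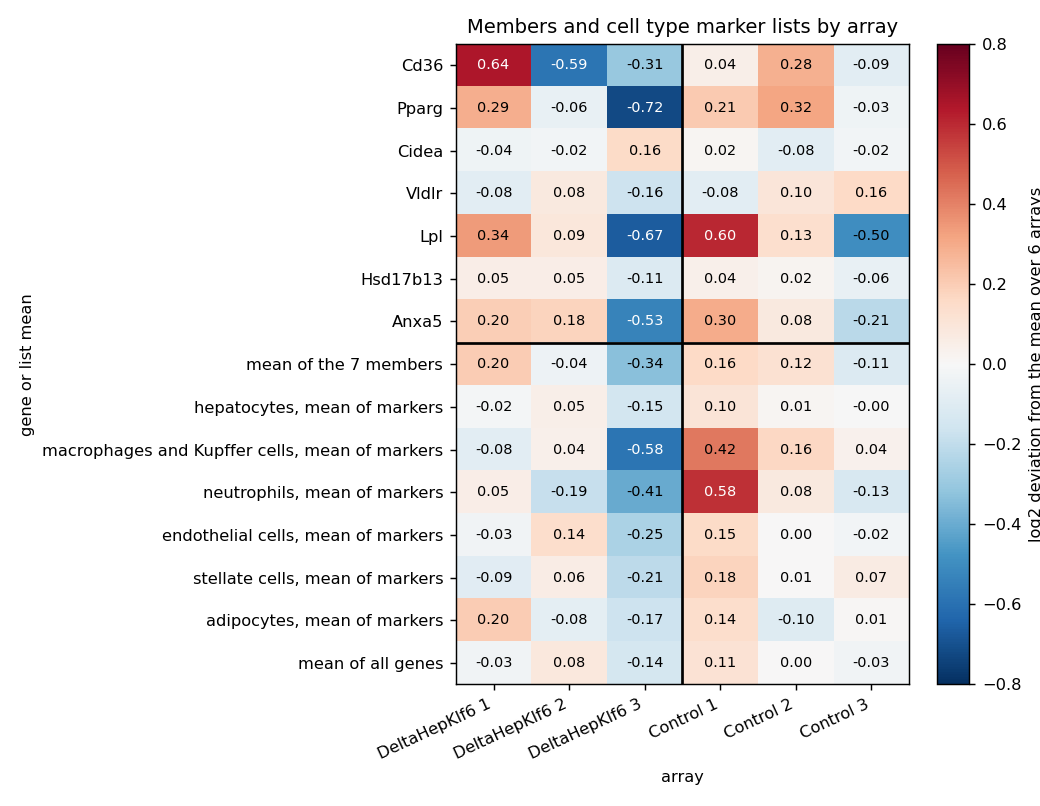
Log2 deviation from the mean over 6 arrays for each member (upper rows) and for the mean of the members, of 6 cell type marker lists and of all genes (lower rows), with DeltaHepKlf6 arrays left and Control arrays right. The members' mean is 0.20 in DeltaHepKlf6 1 and -0.335 in DeltaHepKlf6 3, on either side of all controls. The place of DeltaHepKlf6 1 above Control 1 rests on Cd36.

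Other genes of the PPAR gamma programme of fatty liver gave no common direction. Of 19 listed genes 15 were measured, with 9 lower, 6 higher and 0 called, and a median log2 difference of -0.06 against -0.05 over all genes. These counts take in dim probe sets, such as that of Adipoq, whose mean was exceeded by 50.4% of the receptor probe sets. G0s2, an inhibitor of the lipase that empties lipid droplets, had 9.34, 9.70 and 9.43 in DeltaHepKlf6 and 8.22, 9.02 and 9.19 in Control. The groups did not overlap, and the difference was 0.68 ± 0.28 (SE) with an interval of 0.003 to 1.36 (limma unadjusted p = 0.0493, adjusted p = 0.998), and 0.385 without Control 1. Fitm1, a protein that helps to form droplets, lay the other way, with 6.35, 6.34 and 6.57 in DeltaHepKlf6 and 7.10, 6.63 and 6.78 in Control. These groups did not overlap either, and the difference was -0.42 ± 0.17 (SE) with an interval of -0.83 to -0.002. It did not pass (limma unadjusted p = 0.0493, adjusted p = 0.998), and was -0.285 without Control 1. Cidec, the relative of Cidea that is also found on droplets, was brighter than the 95th percentile of the receptors, with 7.68, 7.46 and 6.38 in DeltaHepKlf6 and 8.10, 6.40 and 7.20 in Control. Its difference was -0.06, or 0.34 without DeltaHepKlf6 3 and 0.37 without Control 1. Its groups overlapped almost wholly, and the interval of -1.32 to 1.20 leaves its difference undetermined at this number of arrays.

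Among the remaining genes of fatty acid uptake and activation, 9 of 16 measured were lower, 7 higher and 0 called, with a median of -0.045. Acsm5, a medium-chain acyl-CoA synthetase, differed by -0.23 ± 0.14 (SE), Acsl5, a long-chain one, by -0.22 ± 0.18 (SE), and the transporter Slc27a1 by -0.30 ± 0.25 (SE). With 1 array left out, Acsm5 ranged from -0.28 to -0.14 (without DeltaHepKlf6 3), Acsl5 from -0.32 to -0.07 and Slc27a1 from -0.45 to -0.09, both last values without Control 1. The fatty acid binding proteins Fabp1 and Fabp2 differed by 0.07 and 0.12, and without DeltaHepKlf6 1 by 0.04 and 0.05. Of the partners of lipoprotein lipase and the lipoprotein receptors, 8 of 13 were lower, 4 higher and 0 called, with a median of -0.09. Lrp1, an endocytic receptor for remnant particles, differed by -0.33 ± 0.26 (SE), Angptl4, an inhibitor of the lipase, by -0.15 ± 0.14 (SE), and Scarb1, the HDL receptor, by -0.30 ± 0.28 (SE). Without DeltaHepKlf6 3 these differences were -0.11, -0.07 and 0.005, and without DeltaHepKlf6 2 those of Lrp1 and Scarb1 were -0.53 and -0.48.

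The list of lipid droplet proteins, which holds Cidea and Hsd17b13 too, was lower in 17 of 22 measured genes, with 5 higher, 0 called and a median of -0.17. Plin2, the droplet coat protein whose amount follows stored fat in hepatocytes, had 11.77, 11.48 and 11.49 in DeltaHepKlf6 and 11.94, 11.69 and 11.71 in Control. DeltaHepKlf6 1 lay above Control 2 and 3, and the difference was -0.20 ± 0.15 (SE) with an interval of -0.57 to 0.17 (limma adjusted p = 0.998), or -0.12 without Control 1. Rab18, a small GTPase of droplets, stood higher with 0.40 ± 0.195 (SE). Hsd17b11, the closest relative of Hsd17b13 on droplets, differed by 0.18 ± 0.14 (SE), and among the 11 measured hydroxysteroid dehydrogenases of this family 6 were lower, 5 higher and 0 called.

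Within the family of Anxa5, 8 of 12 annexins were lower, 4 higher and 0 called, with a median of -0.21. Anxa1, a mediator in the resolution of inflammation, had 7.34, 6.67 and 6.07 in DeltaHepKlf6 and 7.78, 7.41 and 7.04 in Control, a difference of -0.72 ± 0.36 (SE), or -0.405 without DeltaHepKlf6 3. Anxa6 differed by -0.65 ± 0.33 (SE), or -0.43 without DeltaHepKlf6 3 and -0.98 without DeltaHepKlf6 2, so that the value of Anxa5 was among the smaller ones. Of the relatives of S100a11, 8 of 13 measured were lower, 5 higher and 0 called, with a median of -0.14. Most of these probe sets were dim, each exceeded by 13.7% to 40.9% of the receptor probe sets, so the count and median say little about transcripts. S100a10, the brightest of the list, differed by -0.42 ± 0.25 (SE), or -0.17 without DeltaHepKlf6 3, and S100a1, the next brightest, by -0.05. The neutrophil gene S100a9 differed by -0.59 ± 0.47 (SE), and without Control 1 by -0.17. Its mean of 5.58 was exceeded by 3.50% of the receptor probe sets. The probe set of its partner S100a8 had a mean of 3.88, which 29.5% of the receptor probe sets exceeded, so a signal above background was not detectable and no difference is drawn from it. In the same arrays the mean of 10 neutrophil markers, which include these S100 genes, was 5.09, 4.86 and 4.63 in DeltaHepKlf6 and 5.62, 5.12 and 4.92 in Control. That mean takes in S100a8 and other dim probe sets whose means lie under the receptors' 95th percentile of 5.32. The part of neutrophils was not tested.

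Of the list of PPAR and RXR receptors and their coactivators, which holds Pparg itself among the lower ones, 6 of 11 were lower, 5 higher and 0 called. Ppara, the PPAR of fatty acid oxidation, differed by -0.13 ± 0.13 (SE), and Rxra, the partner with which PPARs bind DNA, by -0.25 ± 0.27 (SE). Without DeltaHepKlf6 3 the difference of Rxra was -0.05 and without DeltaHepKlf6 2 it was -0.52. Ppargc1a, the coactivator PGC-1 alpha, had 9.39, 8.72 and 9.50 in DeltaHepKlf6 and 8.35, 8.64 and 8.39 in Control. It differed by 0.74 ± 0.24 (SE) without overlap and did not pass either (limma unadjusted p = 0.0195, adjusted p = 0.998).

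**Figure D4:**
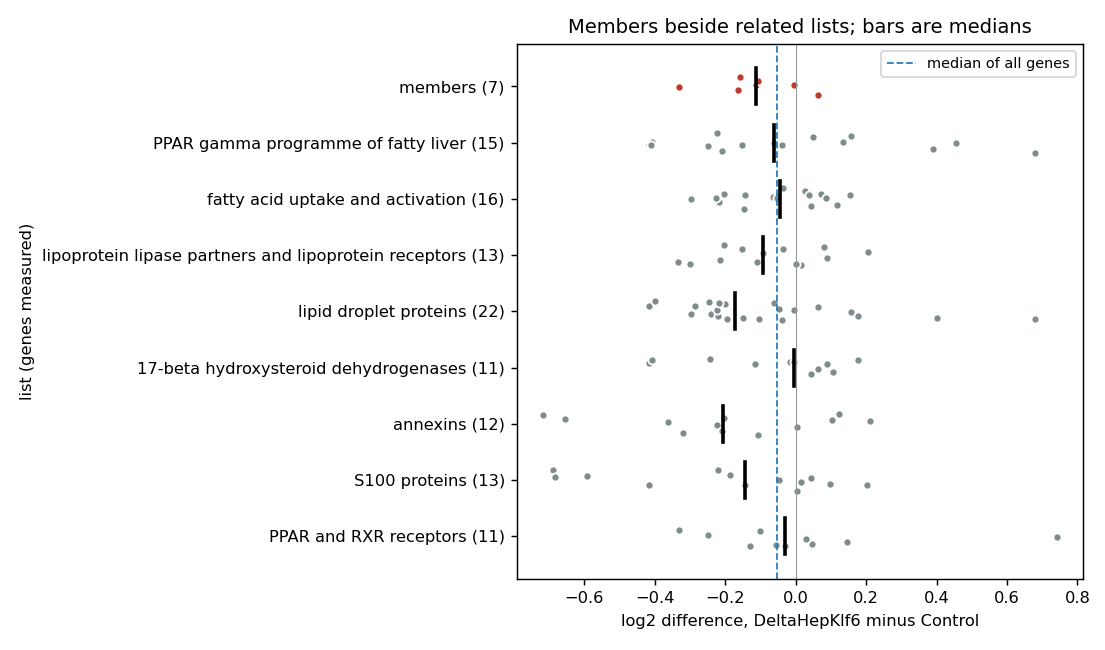
Log2 differences, DeltaHepKlf6 minus Control, of each measured gene (points) in the member set and 8 related lists, with the median of each list as a black bar and the median of all genes, -0.05, as a dashed line. The members run from -0.33 (Pparg) to 0.06 (Cidea). Pparg lies below the lowest gene of the fatty acid uptake and activation list, at -0.30, and is itself the lowest of the PPAR and RXR list. The remaining related lists reach at least as low, and all related lists reach above 0.06. The droplet, dehydrogenase, annexin and PPAR and RXR lists hold members themselves, so their ranges include those members by construction. Ppargc1a and G0s2 are the points farthest to the right.

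Genes whose 6 values ran most like the members' mean deviation, among the 7424 genes brighter than the median gene that are not members, were D5Ertd579e, Wbp4, Robo1, Senp2, Srgn and Ddx52. Their Pearson correlations over the 6 arrays were 0.987 to 0.992, and 277 of the 7424 genes exceeded 0.9. Rgs2 and Shoc2 ran most like Pparg, with 0.994 and 0.995, and 237 genes exceeded 0.9. Jak2 and Rictor ran most like Cd36, with 0.983 and 0.975, and 82 genes exceeded 0.9. Jak2 had 6.97, 6.33 and 6.43 in DeltaHepKlf6 1, 2 and 3 and 6.72, 6.78 and 6.52 in Control 1, 2 and 3, the same order of arrays as Cd36. For Cidea, whose probe set lies at background, no like genes are named. Within the set, the correlation of each member with the mean, of which it is a part, was 0.958 for Pparg, 0.916 for Lpl, 0.913 for Anxa5, 0.881 for Hsd17b13, 0.693 for Cd36, 0.127 for Vldlr and -0.755 for Cidea, the last of them at background. All of these rest on 6 arrays that also share the differences in range given above, and are descriptions without a test.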

How the data were processed

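Total RNA of 6 livers, 3 DeltaHepKlf6 and 3 Control, was measured on Affymetrix mouse exon arrays at transcript level. The authors deposited log2 values for 23332 probe sets; the submitters' processing notes name limma, RMA and Affymetrix Expression Console, with versions, roles and genome build not given in the sources used here. That the scale is log2 was read from the values, 0.65 to 14.35. No detection calls were used, and the number of arrays limits precision.

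Groups came from sample titles, which name separate mice. Per the platform annotation, 14996 probe sets name 1 gene. The brightest set by mean of the 6 arrays stood for a gene; each measured member had 1. All 23332 sets were fitted with lmFit and eBayes (limma 3.58.1, R 4.3.3), without covariate or filter, with Benjamini-Hochberg adjustment over all sets and a call at an adjusted p under 0.05. The fit was tested on simulated data. Python 3.11.15, pandas 2.3.3 and matplotlib 3.10.9 made tables and plots. Promoter sequences are RefSeq's (GRCm38.p6), with 9 windows for 6 of the 8 genes. For the members, windows on chromosome 18, where Cidea lies, were left out, and Lpl had no usable window.

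Members and lists were chosen with earlier results of these data known. Named genes are the members, Klf6, up to 3 genes per related list by unadjusted p and 2 by level, 2 per marker list by level, and the nearest patterns, apart from those of Cidea, which lies at background. Adipoq, among the 3 of its list, was also used to describe adipocyte RNA. Hnf4a, Asgr1, Fah and Tat were added to show the lower hepatocyte markers. Same-numbered mice did not deviate together (correlations of deviations over probe sets of -0.133, -0.167 and 0.210).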

Additional observations from a re-analysis of the deposited data

How the results depend on the processing

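Of 16 alternative settings, 4 leave the difference of each gene as it is by construction (intensity trend, both filters on dim probe sets and the replicate block). They bear only on the test, and the filters also on which members are counted. Under the other 12 settings, 67 of 84 member differences kept their direction, 16 turned it and 1 was 0 (Anxa5, without Control 3 and DeltaHepKlf6 3 together). All settings gave 0 called members and 0 called probe sets. Direction turned for Hsd17b13 with equal array medians (0.017), equal medians and interquartile ranges (0.238), array weights (0.004), the interquartile range as a covariate (0.031), and, in a setting added after seeing the data, without Control 3 and DeltaHepKlf6 3 together (0.02). It turned for Anxa5 with equal medians and interquartile ranges (0.056) and with the covariate (0.058), and for Lpl with the covariate (0.085). The cause was not tested. With the covariate 3 of 7 members were lower, against 6 as reported. The members' median was -0.07 after quantile normalization, -0.09 with equal medians, -0.02 with equal medians and interquartile ranges, -0.03 with array weights and 0.03 with the covariate, against -0.11 as reported. With 1 array left out, the difference ranged from -0.527 to 0.0883 for Cd36, -0.56 to -0.05 for Pparg, 0.002 to 0.097 for Cidea, -0.18 to -0.06 for Vldlr, -0.445 to 0.138 for Lpl, -0.033 to 0.05 for Hsd17b13 and -0.24 to 0.133 for Anxa5. The members' median then ranged from -0.24 to 0.015, and the number lower from 3 to 6 (3 without DeltaHepKlf6 3 or Control 1). Leaving out 1 array gave 674 to 1797 probe sets at an unadjusted p under 0.05, against 750 with all arrays, and the 1797 were found without DeltaHepKlf6 2. With the replicate block the median was -0.11 and 6 members were lower, with 884 probe sets at an unadjusted p under 0.05; the numbers are not known to pair the mice. A filter on the dimmest 25% or 50% removed Cidea, and at 50% Vldlr too. The median of the members left was -0.135 at 25%, with 6 of 6 lower, and -0.16 at 50%, with 5 of 5 lower. Averaging all probe sets of a gene changed nothing, as each member had 1.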
